A study of Homo sapiens with 16 samples.

Results

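The cytosolic ribosomal protein genes encode the proteins that, with the ribosomal RNAs, build the large and small subunits of the ribosome in the cytoplasm. They were chosen by symbol alone, as protein-coding genes named RPL or RPS followed by a number, with the P-stalk genes RPLP0, RPLP1 and RPLP2 and with RPSA included, and pseudogenes, readthrough genes and the RPS6K kinases left out. The rule found 81 of 20033 protein-coding genes on chromosomes 1 to 22, X and Y of GRCh38, of which 49 encode large-subunit and 32 small-subunit proteins. No measured value entered the choice.

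The data were peak lists from CUT&RUN, in which an antibody directs a nuclease to cut and release the DNA around a bound protein or a modified histone inside nuclei. All samples were the human melanoma line WM164, at about 250000 cells per sample. The GFP cells overexpressed GFP, the control protein, and the MAFG cells overexpressed MAFG, one of the small MAF proteins, which pair with NRF2 and other bZIP factors to bind DNA. In each line 3 libraries were made with anti-MAFG, 3 with anti-MITF and 1 with anti-H3K4me3, which gave 14 peak lists. MITF is the basic helix-loop-helix leucine-zipper factor of the melanocyte lineage, and H3K4me3 (trimethylated lysine on histone H3) marks active promoters. Each line also had 1 IgG sample, not analysed here. The labels do not say whether the lines are clones, how either protein was driven or whether numbered libraries came from separate cultures, so the p-values below measure only the spread between libraries, which may be technical.

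Ribosomal protein genes are among the most strongly and steadily transcribed genes of a growing cell. Many have short gene bodies, host small nucleolar RNA (snoRNA) genes in their introns, and start transcription at a cytosine within a run of pyrimidines, so that their mRNAs begin with a terminal oligopyrimidine (TOP) tract through which growth signalling controls their translation. Their promoters are usually linked to housekeeping factors such as GABPA, YY1 and SP1 rather than to tissue factors.

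The start sequences carried that family trait. A RefSeq promoter entry (GRCh38.p14, 250 bases before to 50 after the start) was matched for 64 of the 81 genes. In 43 of the 64 (67.2%) at least 8 of the first 10 transcribed bases were pyrimidines, against 9.86% of the 15841 protein-coding promoters in the same table. The annotated start was a C in 46 (71.9%, against 11.3%), and in 42 (65.6%, against 4.602%) that C was followed by at least 4 pyrimidines. The 30 bases around the start (positions -15 to 14, with the first transcribed base as 0) are shown for the genes whose peaks are described most closely, with the pyrimidine run over the start in capitals. In RPL19, RPL10 and RPS28 the annotated start is a purine, and no capitals appear.
RPL38: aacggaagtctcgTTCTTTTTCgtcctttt
RPL41: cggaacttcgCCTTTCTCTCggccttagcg
RPS27: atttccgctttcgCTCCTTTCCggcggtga
RPS13: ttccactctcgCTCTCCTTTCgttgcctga
RPL19: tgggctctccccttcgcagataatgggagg
RPL10: tttttccactctcagaaatatacgtctgtc
RPS28: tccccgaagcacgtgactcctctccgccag

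Motifs that MITF and small MAF proteins are known to bind were not more frequent in these promoters than in all promoters of that length. The E-box CACGTG, read on both strands, was in 3 of 64 (4.69%, against 8.88% of 15841), and the related CATGTG was in 4 (6.25%, against 8.43%). Longer forms hold one of those hexamers. TCACGTG was in 3 (4.69%, against 4.79%). TCATGTG was in 0 (against 2.27%). GTCACGTG was in 1, RPS28 (1.56%, against 3.43%). The MAF-type form TGACNNNGC was in 6 (9.38%, against 14.3%) and the AP-1 form TGANTCA in 2 (3.13%, against 5.75%). The ETS motif CCGGAAG was in 22 (34.4%, against 14.2%) and the YY1-type AAGATGG in 8 (12.5%, against 6.40%). TATAAA, the TATA box, was in 6 (9.38%, against 9.63%). A match describes the letters and is not a binding site.

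The 3 genes with CACGTG were RPL19, RPS28 and RPL13A, and 1 of the 2 with TGANTCA was RPL24, the other being RPL6. The promoter entry of RPL6 starts kilobases inside the gene, so its match is not at the upstream gene end. The stretches are printed below because they hold the match, in capitals. They are RPL19 at chr17:39200033-39200093 (plus strand), RPL13A at chr19:49487358-49487418 (plus), RPS28 at chr19:8321436-8321495 (plus) and RPL24 at chr3:101686908-101686968 (minus).
RPL19: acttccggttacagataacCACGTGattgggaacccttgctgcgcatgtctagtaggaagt
RPL13A: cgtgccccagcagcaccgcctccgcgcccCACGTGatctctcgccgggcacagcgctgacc
RPS28: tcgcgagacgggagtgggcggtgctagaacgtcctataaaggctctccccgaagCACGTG
RPL24: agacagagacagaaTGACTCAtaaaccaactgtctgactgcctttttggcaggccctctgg

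No peak of any of the 12 anti-MAFG and anti-MITF libraries covered the CACGTG of RPL19, RPS28 or RPL13A, although RPL19 and RPS28 had anti-MITF peaks near their starts. The TGACTCA of RPL24 lay under a peak in 2 of 3 anti-MAFG and 2 of 3 anti-MITF libraries of GFP cells and in 0 of 6 libraries of MAFG cells.

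The H3K4me3 lists held a peak within 5000 bp of a gene end for 80 of the 81 genes in each line (98.8%, exact 95% binomial interval 93.3 to 99.97%), against 59.9% of all protein-coding genes in GFP cells and 55.8% in MAFG cells. Binomial intervals here cover counting error only. The exception was RPL10L, the testis paralog of RPL10. RPL3L, the muscle paralog of RPL3, counted as marked, but the peak in its window was the same one as that of its neighbour RPS2. The genes' strongest H3K4me3 peak had a median deposited fold enrichment of 75.04 (quartiles 55.4 and 86.1, n = 80 genes) in GFP cells, against 39.0 for the 11921 other marked genes. It lay at the 92.8th percentile of its list, against the 64.5th. In MAFG cells the medians were 30.03 and 18.3, at the 87.4th and 60.6th percentiles. RPS15, a small-subunit protein, had the highest fold in GFP cells at 166.8, and RPL36A the lowest at 17.6. The marked base pairs per window had a median of 4572 against 2796 in GFP cells and 3310 against 2241 in MAFG cells. With 1 library per line, these values have no replicate check. Of the melanocyte lineage, 5 of the 6 lineage markers MITF, TYR, MLANA, PMEL, DCT and SOX10 carried H3K4me3 in each line.

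In GFP cells ribosomal protein genes had anti-MAFG and anti-MITF peaks less often than other genes with as much H3K4me3. With anti-MAFG, 24, 25 and 9 of the 81 genes had a peak in replicates 1, 2 and 3 (29.6%, 30.9% and 11.1%). With anti-MITF the numbers were 36, 34 and 34 (44.4%, 42.0% and 42.0%). The anti-MITF libraries lay close together, whereas replicate 3 of anti-MAFG stood apart. That library had 14879 peaks, against 26221 and 23409 in the other anti-MAFG libraries and 19828 to 20117 in the anti-MITF libraries. The comparison value is the share of other H3K4me3-marked genes with a peak, weighted so that they have the ribosomal genes' distribution over 5 classes of H3K4me3 base pairs. It was 58.3%, 51.9% and 36.2% with anti-MAFG and 74.4%, 73.7% and 73.1% with anti-MITF. The difference, taken over the 80 marked genes, was -24.6 ± 3.85 percentage points with anti-MAFG and -30.4 ± 0.902 with anti-MITF (SD, n = 3 libraries). It was negative in 6 of 6 libraries and exceeded the spread between them.

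**Figure D1:**
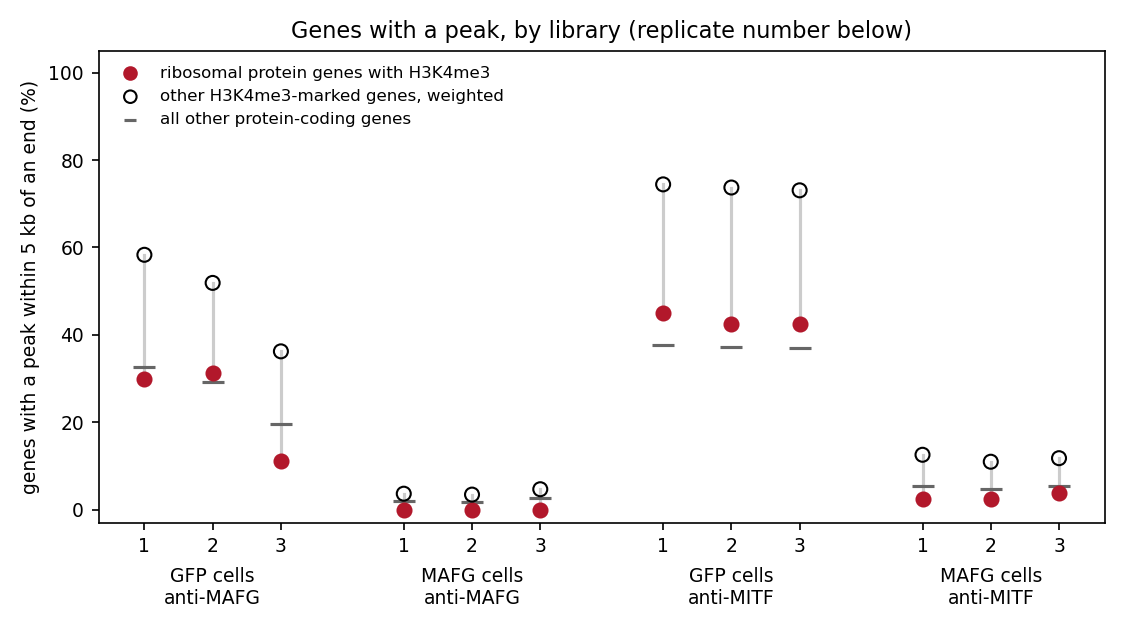
Percent of genes with a peak within 5 kb of a gene end (y axis) in each of the 12 anti-MAFG and anti-MITF libraries, by group and replicate number. Filled circles are the 80 ribosomal protein genes with H3K4me3, open circles other H3K4me3-marked genes weighted to the same H3K4me3 classes, and dashes all other protein-coding genes. The filled circles lie below the open ones in every library, by the widest margin with anti-MITF in GFP cells.

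Requiring a peak in at least 2 of the 3 libraries (a consensus site) gave 17 of 81 genes with anti-MAFG in GFP cells (21.0%, exact 95% interval 12.7 to 31.5%), where 26.8% of all protein-coding genes had one. It gave 34 of 81 with anti-MITF (42.0%, interval 31.1 to 53.5%), where the share of all genes was 37.3%. So against all genes, most of which are less marked or not marked at all, the shares were close to the background. The weighted share of marked genes was 49.1% with anti-MAFG, or 39.3 genes expected, and 75.1% with anti-MITF, or 60.0 genes expected. By gene, the anti-MAFG sites were called in 3 libraries for 9 genes, in 2 for 8, in 1 for 15 and in 0 for 49. For anti-MITF these numbers were 26, 8, 10 and 37. Without replicate 1 or without replicate 2 of the anti-MAFG group, 11.1% of the genes had a site in both remaining libraries.

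How far below depended on what was matched. Ribosomal protein genes are short, with a median of 5025 bp against 29010 bp for other marked genes in GFP cells, and 65 of the 80 fell in the shortest of 5 length classes. Matched on gene length alone, marked genes had consensus sites at 31.0% with anti-MAFG and 56.4% with anti-MITF. Matched on H3K4me3 and length together, a comparison chosen after seeing the data, the shares were 39.3% and 72.4%. The difference per library was then -15.4 points with anti-MAFG and -28.5 points with anti-MITF. With length alone it was -7.77 ± 3.66 points with anti-MAFG and -13.5 ± 1.215 points with anti-MITF (SD, n = 3 libraries). All of these were negative, and both gaps were smallest when length alone was matched. The length-matched anti-MAFG share of 31.0% lay inside the exact interval of the ribosomal share, 12.7 to 31.5%. Under that match the anti-MAFG consensus shortfall was thus within counting error. The length-matched anti-MITF share of 56.4% lay above the ribosomal interval of 31.1 to 53.5%.

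**Figure D2:**
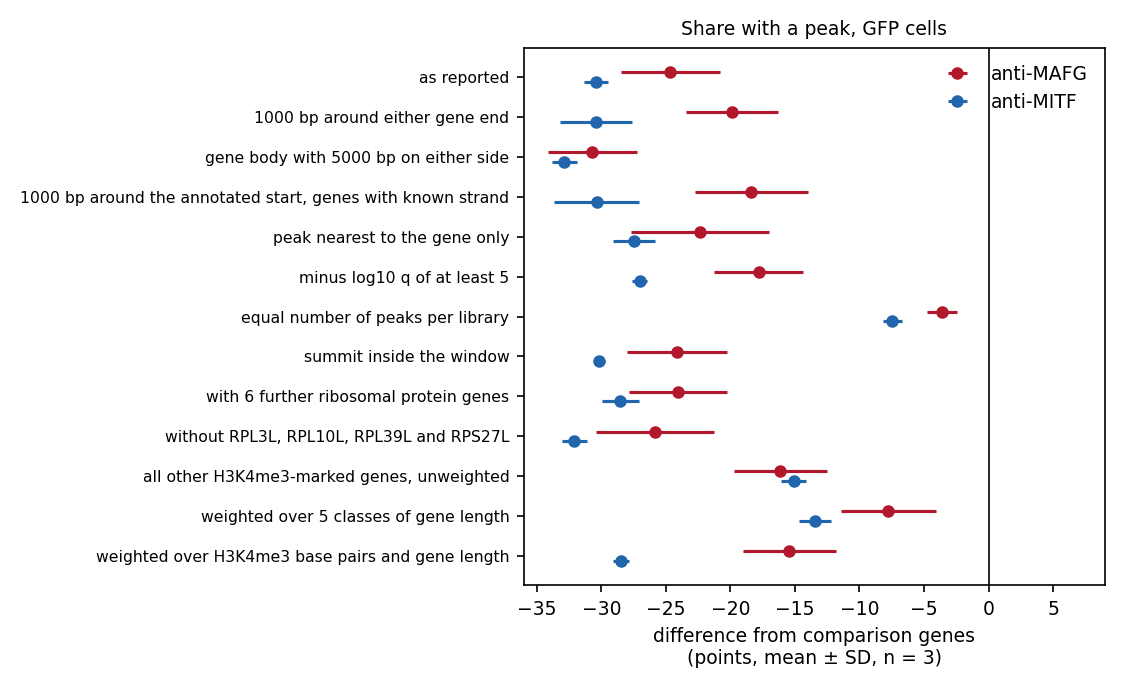
Difference in the share of genes with a peak, ribosomal protein genes minus the comparison genes (x axis, percentage points), under each window, peak and matching choice (y axis), in GFP cells. Points are means over 3 libraries and bars are SD. All means are below 0, and those nearest to 0 are the ones with an equal number of peaks per library, -3.59 for anti-MAFG and -7.45 for anti-MITF.

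Within the classes of H3K4me3 the gap was present at each level that held enough ribosomal genes. In the class with the most H3K4me3, 12 of 43 ribosomal protein genes had an anti-MAFG site, against 53.1% of 2388 other genes, and 21 had an anti-MITF site, against 83.8%. In the next class, 5 of 22 had an anti-MAFG site (others 48.8%) and 8 had an anti-MITF site (others 71.4%). In the middle class the counts were 0 and 4 of 12 (others 40.4% and 58.1%). Among other genes the share rose with H3K4me3 in every class.

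**Figure D3:**
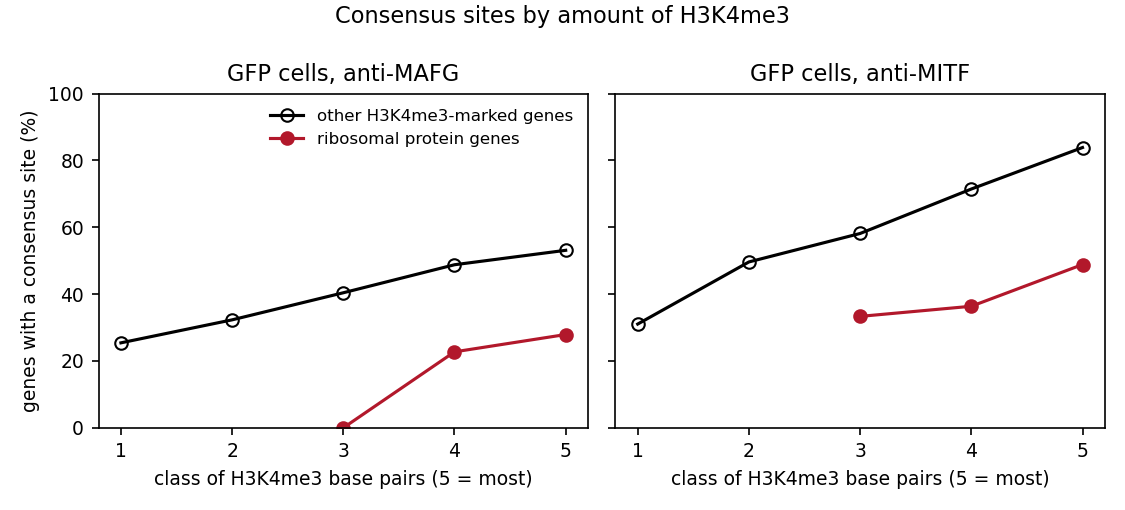
Percent of genes with a consensus site in GFP cells (y axis) by class of H3K4me3 base pairs (x axis, 5 = most), with anti-MAFG on the left and anti-MITF on the right. Filled circles are ribosomal protein genes in classes with at least 10 of them (classes 1 and 2 hold 1 and 2 genes and are left out), and open circles are other marked genes. The ribosomal genes lie below the others in each class shown.

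In MAFG cells nearly all of these sites were without a called peak. With anti-MAFG, 0, 0 and 0 of 81 genes had a peak, and with anti-MITF 2, 2 and 3. The weighted marked genes had peaks at 3.67%, 3.46% and 4.69% with anti-MAFG, or 2.93, 2.77 and 3.75 genes expected. With anti-MITF they had 12.6%, 10.98% and 11.8%, or 10.1, 8.79 and 9.43 genes expected. The consensus count was 0 with anti-MAFG (upper limit of the exact 95% interval 4.45%), where the share of all genes was 1.8%. It was 1 with anti-MITF, RPL19 (1.23%, interval 0.0313 to 6.69%), where the share of all genes was 4.63%.

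The mean share of ribosomal protein genes with an anti-MAFG peak was 23.9% ± 11.1 over the 3 GFP-cell libraries (SD, n = 3) and 0% over the 3 MAFG-cell libraries, so that it differed by -23.9 points. With anti-MITF it was 42.8% ± 1.42 and 2.88% ± 0.713, a difference of -39.9 points. The groups did not overlap with either antibody. The two-sided exact permutation test gave p = 0.1 for each antibody, the smallest value that 3 libraries against 3 allow. Over both antibodies the mean difference was -31.9 points, with a stratified exact permutation p of 0.005, the smallest that its 400 assignments allow. The difference from GFP to MAFG cells was 16.05 points larger in size with anti-MITF than with anti-MAFG (two-sided exact permutation p = 0.1). A drop can be no larger than the GFP-cell share, so with MAFG-cell shares this low the contrast largely restates the GFP-cell shares. With the same number of peaks from each library the line difference was -1.235 points with each antibody.

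This drop was not particular to ribosomal protein genes. The lists of MAFG cells held 1836 to 2818 peaks with anti-MAFG and 2116 to 2495 with anti-MITF, and the share of all other protein-coding genes went from 27.1% ± 6.77 to 2.16% ± 0.523 and from 37.3% ± 0.375 to 5.25% ± 0.369 (SD, n = 3). The lowest -log10 p among the deposited peaks was 4.19 to 4.45 in the 6 lists of GFP cells and 5.20 to 5.47 in the 6 of MAFG cells, whereas the lowest -log10 q was alike, at 2.004 to 2.024 and 2 to 2.149. The lists thus ended at about the same q, which fell at a stricter p in MAFG cells. Each line also had its own IgG sample, and the overexpressed protein and the control of each line cannot be told apart here. With the same number of peaks from each library, the best 1836 by fold, the difference over both antibodies was -1.23 points (2.26% against 1.03%, exact permutation p = 0.06), and the call was lost. In GFP cells the consensus counts were then 0% with anti-MAFG and 2.47% with anti-MITF.

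In points, the gap to the weighted marked genes was smaller in MAFG cells, at -3.94 ± 0.658 with anti-MAFG and -8.86 ± 1.07 with anti-MITF (SD, n = 3). The change in the gap between lines was 20.7 and 21.5 points, each with an exact permutation p of 0.1, the smallest possible. With equal numbers of peaks the change was 0.170 and 0.447 points (exact permutation p = 0.8 and 0.5). As a ratio, in GFP cells ribosomal protein genes had a peak 0.476 ± 0.150 times as often as the weighted marked genes with anti-MAFG. With anti-MITF it was 0.588 ± 0.0149 times. In MAFG cells the ratio was 0 with anti-MAFG, where no ribosomal protein gene had a peak, and 0.248 ± 0.0622 with anti-MITF (SD, n = 3). So in MAFG cells the gap was smaller in points, while the ratio was lower. The MAFG-cell ratios rest on 0 genes with anti-MAFG and 2 to 3 genes per library with anti-MITF. The ratio was not computed with equal numbers of peaks. The anti-MAFG shares of ribosomal protein genes were then 1.235% in GFP and 0% in MAFG cells, with gaps of -3.59 and -3.42 points. With anti-MITF they were 3.29% and 2.06%, with gaps of -7.45 and -7.00 points.

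Within GFP cells the anti-MITF lists reached more of these genes than the anti-MAFG lists, by 18.9 points, with an exact permutation p of 0.1. The groups did not overlap (34 to 36 genes against 9 to 25). Without anti-MAFG replicate 3 the difference was 12.6 points, and with equal numbers of peaks it was 2.06 points (exact permutation p = 0.2). In MAFG cells the difference was 2.88 points (exact permutation p = 0.1). The same direction held for all other protein-coding genes in the values above.

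By pattern over libraries, 9 genes (11.1%) had an anti-MAFG peak in 3 of 3 GFP-cell and 0 of 3 MAFG-cell libraries, where 13.2% of all genes did. With anti-MITF 23 genes (28.4%) had this pattern, where the share of all genes was 19%. The opposite pattern was found for 0 ribosomal protein genes with either antibody, where it held for 0.0549% and 0% of all genes. In GFP cells 14 genes (17.3%) had a consensus site with both antibodies (20.7% of all genes). A consensus anti-MITF site with no anti-MAFG peak in any library was found for 13 (16.05%, against 9.66%), and the reverse for 2, RPS29 and RPL39 (2.47%, against 3.07%). Peaks in 3 of 3 anti-MITF and 0 of 3 anti-MAFG libraries were found for 11 (13.6%, against 5.76%), and the reverse for 0 (against 1.08%). The shares with both antibodies or anti-MAFG alone were near those of all genes, and no difference from all genes was tested for any pattern.

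**Figure D4:**
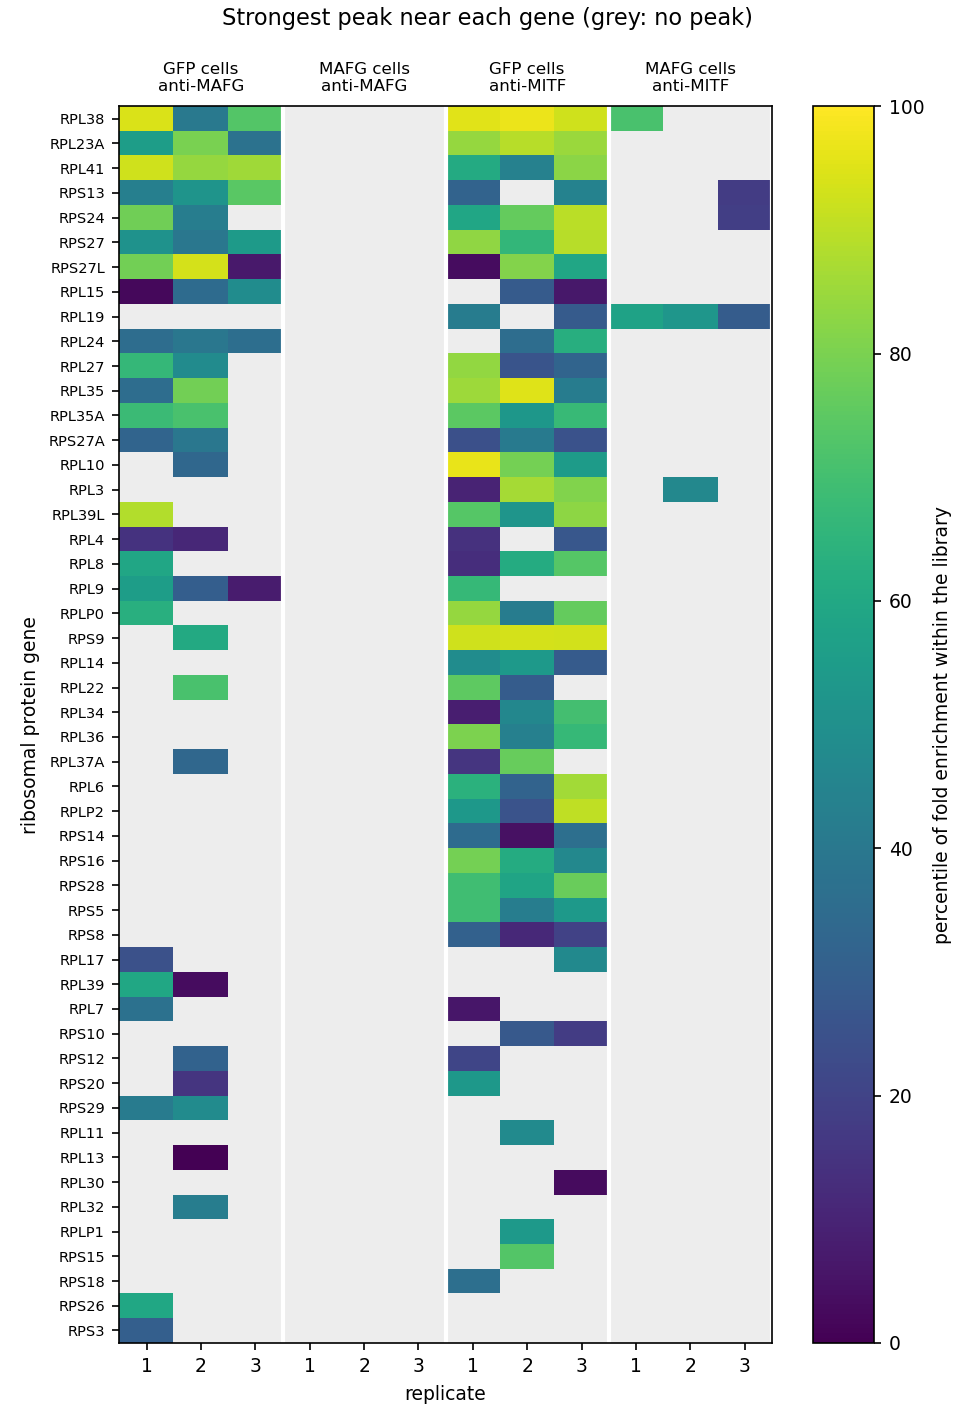
Percentile of the deposited fold enrichment, within its own list, of the strongest peak near each gene (colour, 100 = strongest) for the 50 ribosomal protein genes with at least 1 anti-MAFG or anti-MITF peak (rows), by group and replicate (columns). Grey means no peak. The anti-MITF columns of GFP cells are the fullest, the anti-MAFG columns of MAFG cells are empty, and RPL19 is the 1 gene with a peak in 3 of 3 libraries of MAFG cells.

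No anti-MAFG or anti-MITF peak lay near 31 of the 81 genes in any of the 12 libraries (38.3%, where 45.3% of all genes had none). Among them were RPL5, which with RPL11 binds the p53 regulator MDM2 when ribosome assembly fails, and RPS19, the gene most often altered in Diamond-Blackfan anaemia. RPS6, the target of the S6 kinases, RPSA, also known as the laminin receptor, and RPS4X were in this group too. Others were RPL27A, RPS25, RPL21, RPL10L, RPL3L, RPS2, RPS15A, RPL26, RPL23, RPL18, RPL13A, RPL28, RPS7, RPL31, RPS21, RPL29, RPS3A, RPL37, RPS23, RPL10A, RPL12, RPL7A and RPL36A. All 31 but RPL10L carried H3K4me3.

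RPL19, a large-subunit protein, was the only ribosomal protein gene with a peak in each anti-MITF library of MAFG cells. The peaks were at chr17:39200219-39200693, chr17:39200119-39200640 and chr17:39200214-39200648 (GRCh38), across the annotated start of the gene at chr17:39200283-39204732. Their folds were 7.16, 6.92 and 5.71, and their summits lay 211 bp downstream, 54 bp upstream and 260 bp downstream of the start. In GFP cells the strongest anti-MITF peak had a fold of 5.98 in replicate 1, 2878 bp upstream near CACNB1, and 5.16 in replicate 3, 351 bp downstream, and replicate 2 had none. It had 0 anti-MAFG peaks in either line. The site thus stood at the start in 3 of 3 libraries of MAFG cells and 1 of 3 of GFP cells. The 4 other genes with a peak in MAFG cells, each in 1 anti-MITF library, were RPL38 (fold 8.04), RPL3 (6.59), RPS24 (5.27) and RPS13 (5.26).

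RPL41, which encodes the shortest ribosomal protein, had the highest mean within-list percentile (87.6) with anti-MAFG among the 9 genes called in 3 of 3 GFP-cell libraries. The folds were 12.3, 9.01 and 8.34 in the 3 GFP-cell libraries, with summits 875, 652 and 724 bp upstream of the start. The first peak was at chr12:56115259-56116503, beside the gene at chr12:56116633-56117967. Its anti-MITF peaks in replicates 1 and 3, with folds of 7.20 and 9.002, had summits at nearly the same place, 834 and 819 bp upstream. In replicate 2 the strongest one, with a fold of 5.86, had its summit inside the gene, 156 bp from its far end. Hence both antibodies gave an upstream peak, in 3 and in 2 libraries.

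RPL38, a large-subunit protein known for its role in the translation of Hox mRNAs, ranked high with both antibodies, but away from its start. The strongest anti-MITF folds were 13.7, 14.2 and 11.7, and the anti-MAFG folds 12.96, 5.69 and 7.06. The anti-MAFG summits and those of anti-MITF replicates 1 and 2 lay 7092 to 7521 bp downstream of the start, just past the end of the gene (chr17:74203678-74210655). The strongest anti-MITF peak of replicate 3 lay next to TTYH2. Weaker anti-MITF peaks, with folds of 5.30 and 5.05, were nearer the start in replicates 1 and 3.

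RPL10, a late-joining large-subunit protein, had the family's clearest anti-MITF peak at a start. The folds were 14.7, 8.46 and 6.39 at chrX:154397123-154398153, chrX:154397232-154398112 and chrX:154397655-154398151, with summits 113 and 179 bp upstream and 2 bp downstream. Anti-MAFG gave a peak in replicate 2 only, with a fold of 5.30 and its summit 238 bp upstream. The 250 bases before the start, at chrX:154397815-154398064 on the plus strand, are shown because the first 2 summits fall in them, with 11 bases centred on each in capitals.
RPL10: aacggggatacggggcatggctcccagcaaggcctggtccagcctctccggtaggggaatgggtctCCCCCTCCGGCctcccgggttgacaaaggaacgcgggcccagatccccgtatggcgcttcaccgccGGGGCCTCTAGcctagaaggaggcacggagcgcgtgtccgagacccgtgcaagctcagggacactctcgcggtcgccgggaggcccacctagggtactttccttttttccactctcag
None of the E-box or AP-1 forms searched was in this stretch.

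RPS28, a small-subunit protein near the mRNA exit site, had anti-MITF peaks with folds of 7.92, 6.55 and 8.31 in GFP cells and 0 anti-MAFG peaks. They began 3' of the CACGTG printed above, the first at chr19:8321556-8321968, and their summits were 241, 543 and 247 bp downstream of the start. RPS13 had anti-MAFG folds of 6.20, 6.17 and 7.23 with summits 653, 359 and 357 bp upstream, and anti-MITF folds of 5.48 and 5.90 in replicates 1 and 3. RPS27L, the p53-responsive paralog of RPS27, had the widest anti-MAFG peaks among these genes, at 3068, 2688 and 2568 bp across the start, with folds of 9.21, 11.2 and 4.10. Its anti-MITF folds were 3.97, 8.74 and 6.85. So in RPS13 and RPS27L both antibodies gave peaks at the promoter, whereas RPS28 had only anti-MITF peaks.

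Several of the highest-ranked peaks in a ribosomal gene's window lay nearer to another gene or kilobases from the gene's own start. RPS27 had folds of 6.73, 5.58 and 6.14 with anti-MAFG and 9.57, 7.14 and 10.3 with anti-MITF, but all 6 summits lay over 4 kb upstream, nearest to RAB13. The strongest RPL23A peaks had anti-MITF folds of 9.92, 10.3 and 9.52 and anti-MAFG folds of 7.07, 8.36 and 5.46. Their summits lay 58 to 96 bp from the nearer gene end of NEK8, with its start and far end not told apart. Those of RPS24 in GFP cells had summits over 4 kb upstream, next to POLR3A, which encodes the largest RNA polymerase III subunit. RPS9 had anti-MITF folds of 12.1, 11.7 and 11.9, with summits 2227, 2158 and 2227 bp beyond its far end. Among genes with anti-MITF but no anti-MAFG peaks, RPL36 (folds 9.14, 5.86 and 7.41) had its summits nearest to HSD11B1L, and RPS16 (8.95, 6.72 and 6.09) had them 4535, 4535 and 4451 bp upstream of its own start. RPL3 had 4.41, 9.63 and 8.92 for its strongest peaks, with summits 459 bp upstream and 2716 and 2634 bp downstream of its start. Each of these libraries had a peak at both places. The upstream summits lay 459, 618 and 588 bp from the start and the downstream ones 2599, 2716 and 2634 bp. RPL6, also with anti-MITF but no anti-MAFG peaks, had folds of 7.31, 5.24 and 9.69 near its own upstream gene end and PTPN11. The replicate 1 summit was 358 bp from that end of RPL6, and the summit in replicate 3 was 106 bp from PTPN11. The start of RPL6 in the promoter table lies kilobases inside the gene, so distances from that start do not describe these peaks. Counting a peak only for the gene whose end is nearest to its summit, consensus sites remained for 12.3% of the ribosomal protein genes with anti-MAFG and 28.4% with anti-MITF in GFP cells. An end of another protein-coding gene lay within 5000 bp of 57 of the 81 genes (70.4%, against 49.8% of other coding genes).

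RPS29 and RPL39 had anti-MAFG but no anti-MITF peaks. RPS29 had folds of 6.16 and 5.91 and RPL39 of 7.28 and 3.76 in replicates 1 and 2, with no peak in replicate 3, the library with the fewest peaks. The RPL39 summits lay 236 and 394 bp upstream of the start. The strongest RPS29 peaks lay 4089 and 4979 bp downstream, and weaker ones, with folds of 6.02 and 4.50, lay 352 and 769 bp downstream.

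Closer to the starts the same order held. Within 1000 bp of the annotated start of the 64 genes, 12, 13 and 6 had an anti-MAFG peak and 16, 18 and 19 an anti-MITF peak in GFP cells. The weighted marked genes had 42.5%, 36.9% and 24.9% with anti-MAFG and 59.3%, 58.4% and 57.5% with anti-MITF. A consensus site was found for 11 with anti-MAFG (17.2%, against 34.5% of the weighted genes) and for 17 with anti-MITF (26.6%, against 58.5%). Among all other coding genes with a known start, marked or not, the shares were 19.1% and 29.5%. Against that background the ribosomal shares were close. H3K4me3 was there for 62 of 64 in each line (96.9%), against 58.0% of those other genes in GFP cells and 54.2% in MAFG cells. Both antibodies had a consensus site at the starts of 7 genes, which were RPS13, RPL41, RPS27L, RPS27A, RPL15, RPL24 and RPL35. RPS27A encodes a ubiquitin fusion protein, and RPL35 shares its start region with ARPC5L, a gene end of which was nearer to these summits. The 4 with anti-MAFG but no anti-MITF consensus there were RPS29, RPL4, RPL9 and RPL39. The 10 with the reverse were RPL22, RPLP2, RPLP0, RPL27, RPL38, RPS28, RPL3, RPL34, RPS14 and RPL10.

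Summit positions were compared with the annotated starts. The strongest H3K4me3 summit lay within 1000 bp of the start in 56 of 63 genes in GFP cells (88.9%, against 73.2% of other marked genes), at a median of 462 bp downstream. For genes with an anti-MAFG peak the shares in the 3 libraries were 55.0%, 52.2% and 62.5% (others 58.6%, 60.0% and 60.0%). For anti-MITF they were 48.3%, 48.3% and 53.6% (others 64.8%, 63.6% and 63.4%). The 3 anti-MITF shares rest on 14, 14 and 15 genes, many of them shared between libraries, and count RPL6 as far from its start because of the table entry described above. The difference from other marked genes was not tested.

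**Figure D5:**
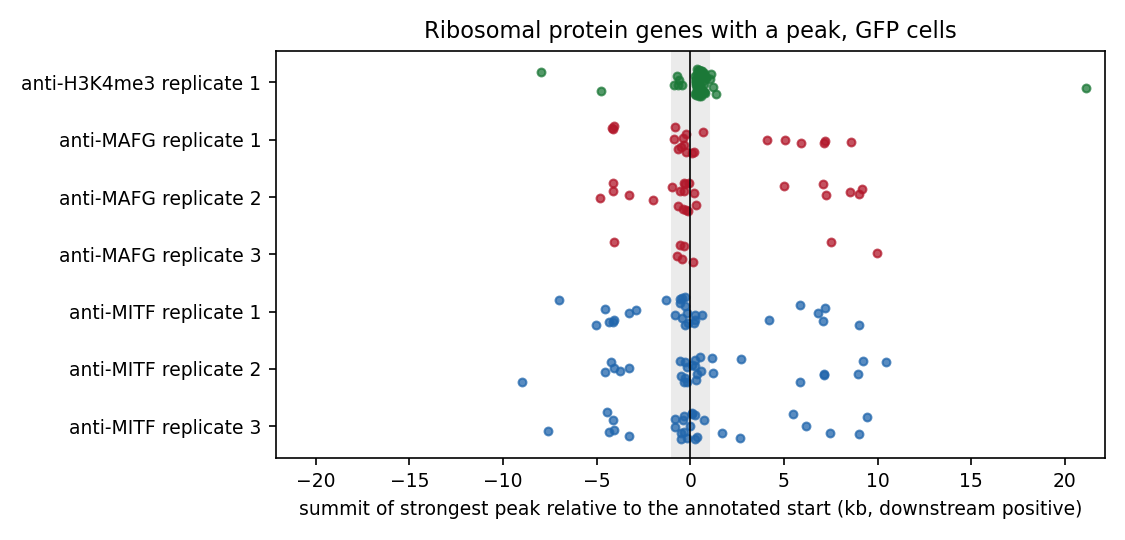
Distance of the strongest summit in the window from the annotated start (x axis, kb, downstream positive) for ribosomal protein genes with a known start and a peak, in each GFP-cell library (rows). Each point is 1 gene and the grey band marks 1 kb to either side. H3K4me3 summits gather just downstream of the start, whereas anti-MAFG and anti-MITF summits also lie about 4 kb upstream and 5 to 10 kb downstream.

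Where a peak was called, it was of ordinary strength. The median percentile of the strongest peak was 55.6, 40.3 and 48.7 for ribosomal protein genes with anti-MAFG in GFP cells, against 54.1, 54.2 and 51.5 for other marked genes. With anti-MITF it was 60.1, 52.5 and 61.1, against 59.2, 58.5 and 59.3. No steady difference appeared in either.

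Genes that host snoRNAs had fewer sites than the other ribosomal protein genes. A snoRNA gene lay inside 29 of the 81 (35.8%, against 2.49% of other coding genes). Of these 29 hosts, 4 had a consensus anti-MAFG site (13.8%) and 7 a consensus anti-MITF site (24.1%) in GFP cells. Among the 52 others, 13 (25%) and 27 (51.9%) did. Other marked genes showed the opposite order, with 47.1% and 65.2% in hosts and 39.8% and 58.6% in the rest. These counts were not tested. The ETS motif CCGGAAG showed a like split among the 64 promoters: it was in 2 of 16 genes with a consensus anti-MAFG site and 20 of 48 without, and in 8 of 29 genes with an anti-MITF site and 14 of 35 without, also not tested. By subunit, 11 of 49 large-subunit and 6 of 32 small-subunit genes had an anti-MAFG consensus site, and 22 and 12 an anti-MITF site (44.9% and 37.5%).

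Other genes of the translation machinery, from fixed lists, give the family's context in GFP cells. Among 12 translation factors and TOP mRNAs (such as EEF1A1, EEF2 and PABPC1), 7 had a consensus anti-MAFG and 11 a consensus anti-MITF site, with 12 of 12 marked by H3K4me3 and weighted shares of 48.8% and 74.9%. Among 13 genes of the nucleolus and rRNA synthesis (such as NPM1, NCL and UBTF), the counts were 3 and 11 (weighted 45.3% and 68.1%). Of 6 ribosomal protein genes outside the symbol rule, such as FAU and RPL22L1, 1 (16.7%, weighted 43.4%) and 4 (66.7%, weighted 65%) had a site. Among the 77 mitochondrial ribosomal protein genes, 21 (27.3%, weighted 40.6%) had an anti-MAFG and 39 (50.6%, weighted 60.1%) an anti-MITF site. These lists are short apart from the mitochondrial one, and their distance from the weighted shares was not tested. The nucleolar list lay below its weighted share with anti-MAFG and above it with anti-MITF. In MAFG cells 1 of the 77 mitochondrial genes, MRPL35, had an anti-MAFG consensus site (1.30%, weighted 2.68%, all genes 1.8%). With anti-MITF 4 of the 77 did, MRPL48, MRPL35, MRPL30 and MRPL22 (5.195%, weighted 7.895%, all genes 4.63%). Of the 13 nucleolar genes 1, POLR1B, had an anti-MITF site (7.69%, weighted 9.78%). The lineage markers had anti-MITF consensus sites in MAFG cells in 3 of 6, TYR, SOX10 and MLANA (50%, weighted 10.9%, all genes 4.63%). An anti-MAFG site was found in 1, MITF (16.7%, weighted 3.45%, all genes 1.8%). In GFP cells 5 of the 6 had an anti-MITF site (83.3%, weighted 75.9%) and 3 an anti-MAFG site (50%, weighted 49.4%).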

How the data were processed

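CUT&RUN peak lists of 14 libraries were used as deposited. Per the submitters' processing notes, cutadapt 1.8.1, Bowtie2 2.4.1 and MACS2 2.1.1.20160309 were among the tools and GRCh38 (hg38) was the build. The control given to the caller and its settings are not given in the sources used here. The authors' lists give each peak's fold enrichment as a ratio, its -log10 p and its -log10 q. Peaks were called per library, and these values were used as the authors' own, to rank or filter within a list. The lists hold no read counts, so the depth is unknown.

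Peaks on chromosomes 1 to 22, X and Y were joined to RefSeq protein-coding genes (GRCh38.p14) where they overlapped, by at least 1 bp, the 5000 bp on either side of a gene end. Shares per library were compared with exact permutation tests (Python 3.11.15, numpy 2.4.6, scipy 1.17.1), on code tested on simulated data. Genes, lists and tests were chosen with earlier results of these data known. Named by rule were genes with a consensus site in MAFG cells, without H3K4me3 or without any factor peak, the 5 highest-ranked per antibody called in 3 of 3 GFP-cell libraries, and up to 5 with 1 antibody's sites only. RPL24, RPL35, RPS24, RPL13A and the genes listed in the start and motif results were named after their values were seen. Replicate lists shared 39.6% to 68.0% of their genes, so none was a copy. Alternatives covered the window, the peak limit, the matching, the gene list and each replicate. A few genes that enter the counts are not reported here by name.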

Additional observations from a re-analysis of the deposited data

How the results depend on the processing

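The gap between ribosomal protein genes and weighted marked genes was negative under each alternative run, and no result reversed its direction. With anti-MAFG in MAFG cells the sign was fixed in advance, because no ribosomal protein gene had a peak under any setting. Those values only restate the share of the weighted genes and are no check on the gap. With anti-MAFG and then anti-MITF, first in GFP and next in MAFG cells, it was -30.7, -32.9, -8.44 and -12.99 points over the whole gene body, -16.1, -15.1, -3.14 and -5.89 with unweighted marked genes, -7.77, -13.5, -2.58 and -5.67 matched on length, and -17.8, -27.0, -2.79 and -5.37 for peaks with a -log10 q of at least 5. With 1000 bp around gene ends it moved to -19.9 with anti-MAFG in GFP cells and to -2.28 and -6.17 in MAFG cells, and around starts to -18.4, -2.20 and -5.15 for the same groups. With the nearest gene only it was -27.5 in GFP cells with anti-MITF, and -3.10 and -6.35 in the MAFG cells. Matched on H3K4me3 and length (chosen after seeing the data) it was -15.4 and -28.5 in GFP cells and -3.26 for anti-MAFG in MAFG cells. With equal numbers of peaks it was -3.59, -7.45 and, for anti-MITF in MAFG cells, -7.00. Adding 6 ribosomal protein genes or leaving out RPL3L, RPL10L, RPL39L and RPS27L gave -28.5 and -32.1 for anti-MITF in GFP cells. Without the 4 paralogs 100% of the genes had H3K4me3 in both lines, and with the nearest gene only 90.1% did in GFP and 87.7% in MAFG cells.

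The consensus share with anti-MITF in GFP cells was 29.6% at 1000 bp from gene ends and also at -log10 q of at least 5, 26.6% at starts, 28.4% with the nearest gene only, 2.47% with equal numbers of peaks and 54.3% for at least 1 library. With anti-MAFG it was 12.3% with the nearest gene only, 0% with equal numbers of peaks, 11.1% in 3 of 3 libraries and 39.5% for at least 1. Leaving out 1 replicate at a time, it ranged from 11.1% to 21.0%. The difference between lines over both antibodies fell to -1.23 points with equal numbers of peaks, and its exact permutation p ranged from 0.005 to 0.06 over all alternatives. The cause of these shifts was not tested, apart from the fewer peaks that some settings keep.

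Same-numbered libraries showed little shared deviation (correlations from -0.0344 to 0.0197 over genes). Between antibodies in GFP cells, the same number was the best partner for replicates 1 and 2, but not for replicate 3. It was not the best partner in any other comparison. Called peaks in so few libraries cannot settle whether the numbers pair the samples. With the replicate block the line differences were again -23.9, -39.9 and -31.9 points for anti-MAFG, anti-MITF and both, with exact sign-flip p of 0.25, 0.25 and 0.0313. The differences between antibodies, 18.9 points in GFP and 2.88 in MAFG cells, and the changes of the gap, 20.7 and 21.5, each had an exact sign-flip p of 0.25, the smallest that 3 pairs allow. Peak lists without read counts cannot tell an absent site from one below the calling limit.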
